A study of Mus musculus with 10 samples.

Results

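The genes described here encode enzymes of glycolysis, the pyruvate dehydrogenase complex with its kinases, and the tricarboxylic acid (TCA) cycle, 40 genes chosen by symbol. All 40 were listed among the 17945 named rows of the islet RNA table, and 39 passed the filter on low values, which asked for 10 normalized counts or more in no fewer than 5 of the 10 libraries. The gene that did not pass was Idh3a. The libraries were whole pancreatic islets of 18-week-old C57BL/6 mice. The 5 knockout libraries carried the Pdx1-CreER driver with Grk5 flox/flox alleles, a knockout intended for β cells. The 5 control libraries were labelled Grk5 flox/flox alone, so by their labels both groups carried the floxed alleles. The labels state neither tamoxifen dosing nor sex. Pdx1, whose promoter drives the Cre, is a transcription factor of β cells. Cells in which the Cre did not act keep the target gene, and which cells these are was not measured here. Bulk values cannot tell fewer cells of a type from less RNA per cell.

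Glycolysis turns glucose into pyruvate in the cytosol. The pyruvate dehydrogenase complex then makes acetyl-CoA from pyruvate in mitochondria, and the TCA cycle oxidises it to feed the respiratory chain. In β cells this route couples blood glucose to insulin secretion through the ATP it yields. β cells take little pyruvate to lactate, and send a large part through pyruvate carboxylase as well as through the dehydrogenase. The complex is switched off by pyruvate dehydrogenase kinases, which phosphorylate its alpha subunit, and switched on again by phosphatases.

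The targeted gene Grk5, encoding a kinase of G protein-coupled receptors, did not separate the groups, at 161 ± 74.9 normalized counts in knockouts and 242 ± 112 in controls (SD, n = 5 each). Its log2 fold change was -0.55 ± 0.42 (SE, limma adjusted p = 0.955), and -0.94 without controls 2 and 5, which are taken up next. Libraries labelled control 2 and control 5 went against their label in Esr1, the gene for the estrogen receptor, a piece of which is fused to Cre in CreER. Esr1 ran from 1517 to 3177 normalized counts in the knockouts, was 2495 and 773 in controls 2 and 5, and lay at or below 10.5 in the other 3 controls. Controls 2, 3 and 5 also differed from the rest in the fine steps of their values (9.001% to 11.2% of values midway between steps, against 1.22% to 1.44%). The number of genes above 0 ran from 10222 in knockout 1 to 14632 in knockout 3. The insulin genes took 12.3% to 17.8% of each library, and all 8 β-cell markers examined were listed, so defining transcripts of islets were present. Dlat and several of the genes below are given with and without these libraries.

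Dlat, a core subunit of pyruvate dehydrogenase, had lower values in all knockout libraries than in any control, and the groups overlapped for the other 38 genes tested. No gene of the 39 passed an adjusted p of 0.05 by limma, and 0% of the 11711 genes tested did. Only 1 of the 39, Dlat, had an unadjusted p under 0.05, against 5.01% of all genes tested (2.36% with higher and 2.66% with lower values in knockouts). A second gene came under 0.05 in 4 of the 22 alternatives, Slc2a1 with array weights and without knockout 1, Pfkm without knockout 4 and Pdha1 without control 5. The median log2 fold change was 0.12 over the 39 genes and -0.03 over all genes tested, with 24 of the 39 above 0 and 15 below, against 52.4% below 0 among all genes tested. Over the alternatives the median of the genes ran from -0.02 to 0.15, so its sign was not stable. Of the 33 tested genes with no library at 0, 20 were above 0 and 13 below. For 30 of these 33 the log2 fold change turned or moved over 1.5 times when some single library was left out. It did so for 16 of the 33 without controls 2 and 5, and for 23 without controls 2, 3 and 5.

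**Figure D1:**
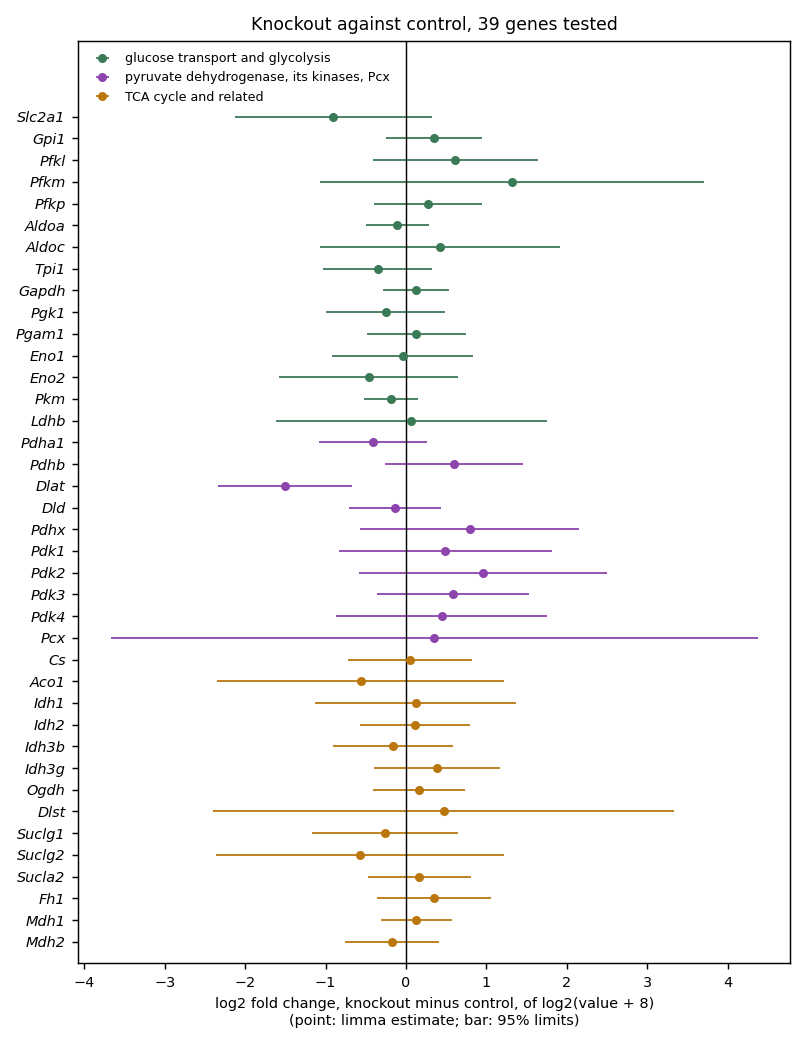
The log2 fold change, knockout minus control, of the 39 genes tested on the log2(value + 8) scale, with points for the limma estimates and bars for 95% limits. The limits of Dlat, -2.33 to -0.67, lie wholly below 0, and those of the other 38 genes include 0.

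Dlat encodes dihydrolipoamide acetyltransferase, the core subunit on which the pyruvate dehydrogenase complex is built and which passes the acetyl group to coenzyme A. It lies at chr9:50634633-50659780 on the minus strand (GRCm38), with 4886 bases of merged exons that overlap no other annotated exon. Dlat was at 166, 94.0, 100.1, 79.0 and 75.0 normalized counts in knockouts 1 to 5, against 491, 338, 319.8, 237 and 173 in controls 1 to 5. Every knockout library lay below every control, though knockout 1 and control 5 were close. The means were 103 ± 36.8 in knockouts and 312 ± 120.1 in controls (SD, n = 5 each). The log2 fold change was -1.50 ± 0.40 (SE), a ratio of 0.354 with 95% limits of 0.198 to 0.630 on the same scale. The unadjusted p was 0.00134 and the adjusted p = 0.881 by limma, so Dlat did not pass over all genes. Among all genes tested the groups failed to overlap in 0.862%, and Dlat was the only one of the 39 genes in which they did. Dlat had been singled out in earlier results of these libraries, so these values are a description.

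For Dlat the authors' deposited table lists a log2 fold change of -1.61 and an adjusted p of 0.0244, the only one of the 40 genes under 0.05 there. Of genes given an adjusted p in the authors' deposited table, 0.0431% pass with lower and 0.0933% with higher values in knockouts. Both fits use the same libraries. Without controls 2 and 5 Dlat was at -1.68 ± 0.47 (SE, limma adjusted p = 0.785) on the log2 scale, and without controls 2, 3 and 5 at -1.71 ± 0.60 (SE, limma adjusted p = 0.999). With single libraries left out it ran from -1.68 (control 5) to -1.32 (control 1).

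Markers of islet and neighbouring cell types were set beside Dlat. Among all genes tested 52.4% had a log2 fold change below 0. All 8 β-cell markers had a lower mean in knockouts, but their summed levels overlapped. The β sums were 963551 to 1275560 in knockouts and 954800 to 1174241 in controls. All 3 delta-cell markers also had a lower mean, with sums of 8801 to 11586 in knockouts and 9887 to 13278 in controls. All 16 acinar markers, transcripts of the enzyme-secreting cells around islets, had a lower mean in knockouts, with summed levels of 31205 to 85862 in knockouts and 21824 to 275890 in controls. Of the acinar list only Ptf1a had a median under 5. With the acinar level as a covariate Dlat was at -1.70 ± 0.47 (SE, limma adjusted p = 0.9999) on the log2 scale. All 6 endothelial markers had a higher mean in knockouts, with sums of 1933 to 2808 in knockouts and 1553 to 1974 in controls. The alpha, ductal, stromal and immune lists were mixed. Means were higher in knockouts for 2 alpha, 4 ductal, 2 stromal and 4 immune markers, and lower for 3, 1, 4 and 1. The 1 PP-cell marker had a lower mean. The part of these lists in the result, apart from the acinar covariate, was not tested.

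The promoters of Dlat and of Slc2a1, the genes with the smallest p among the 39, are shown because the search for shared motifs starts from them. Each window holds 250 bases before and 50 after the RefSeq start, from GRCm38.p6, at chr9:50659731-50660030 on the minus strand and chr4:119108495-119108794 on the plus strand. Capitals mark matches to the motifs named next.
Dlat: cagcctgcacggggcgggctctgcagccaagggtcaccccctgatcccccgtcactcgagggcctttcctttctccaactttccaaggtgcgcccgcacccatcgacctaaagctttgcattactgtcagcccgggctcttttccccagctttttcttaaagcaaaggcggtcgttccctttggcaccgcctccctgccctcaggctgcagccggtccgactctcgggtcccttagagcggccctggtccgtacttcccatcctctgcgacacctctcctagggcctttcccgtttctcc
Slc2a1: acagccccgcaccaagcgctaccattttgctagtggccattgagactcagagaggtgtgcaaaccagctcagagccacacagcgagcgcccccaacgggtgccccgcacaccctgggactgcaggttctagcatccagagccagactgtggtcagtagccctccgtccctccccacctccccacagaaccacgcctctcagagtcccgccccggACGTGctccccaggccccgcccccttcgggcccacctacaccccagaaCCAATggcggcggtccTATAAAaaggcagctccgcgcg

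The search covered both strands. The core of the hypoxia response element was read as ACGTG. The E-box was read as CACGTG, which contains that core. The element bound by estrogen-related receptors was read as AAGGTCA, and the cAMP response element as TGACGTCA. The CCAAT box has its own letters as its name, the TATA box was read as TATAAA, and the NRF1 motif was the last of the 7. The Dlat window held no match to any of them, and that of Slc2a1 held the hypoxia core, the CCAAT box and the TATA box. RefSeq windows were found for 39 of the 40 genes, 57 windows in all. The hypoxia core was in 22 of the 57 windows (38.6%), from 15 genes, against 19.6% of the 32851 windows of all genes. The CCAAT box was in 54.4% against 37.4%, and the TATA box in 3.51% against 13.6%. The E-box was in 10.5% against 7.15%, from windows of Ogdh, Pcx, Pdk2 and Pfkm only. The cAMP response element was in 7.02% against 1.79%, which is 4 windows, all of Mdh2 and Ogdh. The NRF1 motif was in 7.02% against 4.60% and the element of estrogen-related receptors in 5.26% against 4.72%. Median GC content was 61.0% in the windows of these genes and 52.7% in all windows, and several windows can belong to 1 gene.

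For the other subunits of the pyruvate dehydrogenase complex the groups overlapped. Pdha1, the alpha subunit of the decarboxylase and the target of the kinases, was at 267, 361, 292, 543 and 543 normalized counts in knockouts and at 526, 539, 606, 765 and 268 in controls. Knockouts 1 to 3 and control 5 were low, and the other 6 libraries lay between 526 and 765 normalized counts (log2 fold change -0.41 ± 0.32 SE, limma adjusted p = 0.955). It was at -0.64 without control 5, -0.27 without control 4, and -0.69 without controls 2 and 5. Pdhb, the beta subunit of the same enzyme, was at 231, 211, 176, 193 and 276 in knockouts and at 211, 196, 210.2, 77.2 and 74.4 in controls. Here controls 4 and 5 were low and the other 8 libraries lay close together (0.60 ± 0.41 SE, adjusted p = 0.942 by limma).

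Dld, the dihydrolipoamide dehydrogenase shared by several complexes, varied little, at 396 ± 45.6 in knockouts and 446 ± 109 in controls (SD, n = 5 each). Its log2 fold change was -0.14, with 95% limits of -0.71 to 0.43, and it was -0.050 without control 5 and -0.25 without control 2. Pdhx, which binds the dehydrogenase to the core, was at 60.4 to 121 in knockouts and at 3.01 to 74.2 in controls. Its highest value was in knockout 1 and its lowest in control 1, and the other 8 libraries lay between 50.1 and 74.2. Pdhx was at 0.79 ± 0.65 (SE), at 0.27 without control 1, at 1.23 without controls 2 and 5, and at 1.66 without controls 2, 3 and 5.

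Within a library the scaling between libraries cancels, so Dlat was also set against Pdha1, Dld and Pdhb per kb of merged exon, as a description. The ratio of Dlat to Pdha1 was 0.474, 0.199, 0.262, 0.111 and 0.106 in knockouts 1 to 5, and 0.712, 0.480, 0.403, 0.236 and 0.493 in controls 1 to 5. Knockouts 1 and 3 lay above control 4, and knockout 1 above control 3 also. The ratio of Dlat to Dld was 0.315, 0.155, 0.179, 0.164 and 0.165 in knockouts, and 0.713, 0.814, 0.489, 0.515 and 0.234 in controls. All knockouts but knockout 1 lay below every control, and knockout 1 was above control 5. Per kb, Dlat lay below Pdhb in every knockout and above it in every control, though Pdhb itself was low in controls 4 and 5. No such comparison with Pdhx is given.

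**Figure D2:**
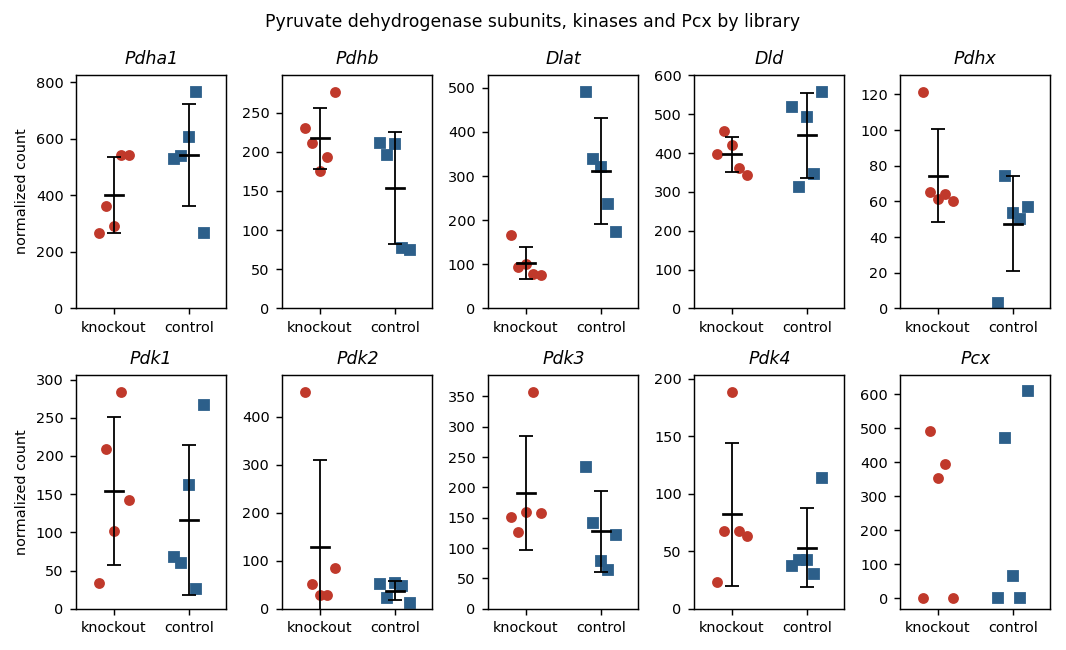
Normalized counts of the 5 pyruvate dehydrogenase subunits, the 4 kinases and Pcx, with 1 point per library (circles, knockout; squares, control), bars for mean ± SD, cut at 0 for Pdk2 in knockouts, and no bars for Pcx, which is listed at 0 in 4 libraries. The groups are apart for Dlat, where the highest knockout is 166 and the lowest control 173, and overlap for the other 9 genes.

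The 4 kinases that inhibit the complex had positive log2 fold changes, as did 5569 of the 11711 genes tested, and none passed. Pdk2 was at 451, 50.8, 29.3, 29 and 84 normalized counts in knockouts and at 52.1, 23, 53.8, 47.9 and 11.3 in controls. Knockout 1 stood alone, and without it the log2 fold change was 0.33, against 0.96 ± 0.74 (SE, limma adjusted p = 0.955) with it and 0.45 without controls 2 and 5. For Pdk2 the authors' deposited table lists 1.74, with 0.653 as its adjusted p.

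Pdk3 was at 150.4, 127, 159, 357 and 157 in knockouts and at 233, 141, 78.0, 63.3 and 121 in controls, so knockout 4 was the highest and the groups overlapped (0.58 ± 0.45 SE). It was at 0.34 without knockout 4. Pdk1, a target of the hypoxia-inducible factors, ran from 33.5 to 283 in knockouts and from 25.6 to 266 in controls (0.49 ± 0.63 SE), at 0.11 without control 4, at 0.83 without controls 2 and 5, and at 1.42 without controls 2, 3 and 5. Pdk4, the isoform induced by fasting in many tissues, was at 23.1, 67.6, 188, 67.8 and 62.8 in knockouts and at 37.4, 42.5, 42.1, 29.9 and 114 in controls. Its range was set by knockout 3 and control 5, and without knockout 3 the log2 fold change of 0.44 ± 0.63 (SE) became 0.10, and without controls 2 and 5 it was 0.78.

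Pcx, pyruvate carboxylase, was listed at 0 in knockouts 1 and 5 and in controls 1 and 4. It was at 491, 354 and 396 normalized counts in knockouts 2 to 4, and at 472, 65.1 and 608 in controls 2, 3 and 5. The zeros were thus in both groups, beside far higher values. The same held for Dlst, listed at 0 in knockout 1 and control 2, for Pfkm, at 0 in knockout 4 and controls 4 and 5, and for Idh3a, at 0 in 6 libraries. Aco1, Ldhb and Suclg2 were each at 0 in 1 library, a knockout. Of the tested genes with a mean of at least 100, 6.54% of all and 4 of 32 among these genes were listed at 0 somewhere. Since these enzymes are used by nearly all cells, a 0 says here only what the table lists, and no direction is drawn from their fold changes.

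None of the 15 genes of glucose transport and glycolysis passed. Their median log2 fold change was 0.06, with Pfkm and Ldhb, each listed at 0 somewhere, kept in. Slc2a1, the widely expressed glucose transporter, had the smallest p of them. It was at 183, 71.4, 53.8, 20.6 and 34.1 in knockouts and at 119.6, 154, 91.9, 178 and 59.8 in controls. Knockouts 3 to 5 lay below every control, but knockout 1 was the highest library of all (-0.90 ± 0.58 SE, unadjusted p = 0.138, adjusted p = 0.942 by limma). Without knockout 1 it was at -1.296, and without knockout 4 at -0.61.

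Gpi1, which converts glucose 6-phosphate to fructose 6-phosphate, was at 420.2 ± 83.1 in knockouts and 331 ± 74.4 in controls (SD, n = 5 each, 0.35 ± 0.28 SE). Pfkl, a subunit of phosphofructokinase, ran from 75.9 to 494 in knockouts and from 65.1 to 216 in controls (0.61 ± 0.49 SE), with knockout 2 the highest, and was at 0.295 without it. Pfkp, another subunit, was at 732 in knockout 1, 303 to 543 in the other knockouts and 234 to 504 in controls (0.27 ± 0.32 SE). It was at 0.083 without knockout 1, and its sign turned without controls 2, 3 and 5 (-0.14).

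Aldoa, the main aldolase here, was at 1434 ± 302 in knockouts and 1531 ± 179 in controls, and Tpi1, triose phosphate isomerase, at 236 ± 24.4 in knockouts and 316 ± 117 in controls (SD, n = 5 each). Control 4, at 516, was the highest for Tpi1, and without it the log2 fold change of -0.35 ± 0.32 (SE) became -0.165, while without controls 2, 3 and 5 it was -0.76. Gapdh, glyceraldehyde 3-phosphate dehydrogenase, was at 1546 ± 341 in knockouts and 1412 ± 241 in controls, and Pgk1, phosphoglycerate kinase, at 218 ± 69.1 in knockouts and 257 ± 60.8 in controls. Pgam1, the mutase that follows it, was at 489 ± 116 in knockouts and 451 ± 145 in controls. For all 5 of these genes the groups overlapped.

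Eno1, the common enolase, was at 1421, 631, 687, 237 and 241 in knockouts and at 731, 414, 403, 651 and 523 in controls. The knockouts held both the highest and the lowest values, and the log2 fold change of -0.04 ± 0.42 (SE) ran from -0.41 without knockout 1 to 0.23 without knockout 4. Eno2, the enolase of neurons and endocrine cells, ran from 33.3 to 300.4 in knockouts and from 91.0 to 279 in controls (-0.46 ± 0.53 SE), and was at -0.048 without knockout 4.

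Pkm, pyruvate kinase, was the steadiest of all 40 genes, at 1992, 1986, 1532, 1418 and 1695 in knockouts and at 1816, 1873, 2093, 2012 and 1944 in controls. Knockouts 3 to 5 were below every control, and the log2 fold change was -0.19 ± 0.16 (SE, adjusted p = 0.955 by limma), with 95% limits of -0.52 to 0.15. Ldhb, a lactate dehydrogenase subunit, was low, at 0 to 96.1 in knockouts and 9.07 to 99.3 in controls. Aldoc, the aldolase known from brain, was at 130.2 in knockout 2, 2.64 to 29.1 in the other knockouts and 7.69 to 24.1 in controls. Its log2 fold change of 0.42 ± 0.71 (SE) turned to -0.11 without knockout 2.

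Among the 14 TCA cycle and related genes tested, the median log2 fold change was 0.12 and no gene had an unadjusted p under 0.05. That median keeps in Aco1, Dlst and Suclg2, each listed at 0 somewhere. Cs, citrate synthase, which joins acetyl-CoA to oxaloacetate, was at 212 ± 75.0 in knockouts and 197 ± 36.8 in controls (SD, n = 5 each). Its log2 fold change was 0.048, and the sign turned with upper-quartile scaling. Ogdh, the decarboxylase of the 2-oxoglutarate dehydrogenase complex, was at 2053, 1432, 1343, 612 and 1729 in knockouts and at 1657, 1266, 1148, 966 and 1015 in controls. Knockouts again held the highest and the lowest library (0.16 ± 0.27 SE), and the value was 0.0089 without knockout 1 and 0.44 without knockout 4.

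The NAD-dependent isocitrate dehydrogenase has a catalytic subunit, Idh3a, and the partner subunits Idh3b and Idh3g. Idh3b was at 238 ± 84.1 in knockouts and 258 ± 63.5 in controls, and Idh3g at 357 ± 179 in knockouts and 258 ± 95.9 in controls (SD, n = 5 each). Idh3g was highest in knockout 1, at 641, and was at 0.15 without that library, against 0.39 ± 0.37 (SE) with it. Idh3b was at -0.17 ± 0.36 (SE), and at 0.056 without knockout 4. Idh2, the mitochondrial NADP-dependent enzyme, was at 540.0 ± 145 in knockouts and 516 ± 175 in controls, lowest in control 5 at 214. Its log2 fold change of 0.11 turned to -0.17 without control 5 and to -0.19 without controls 2 and 5. Idh1, its cytosolic counterpart, ran from 20.5 to 256 in knockouts and from 59.8 to 117 in controls.

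Suclg1, the alpha subunit of succinyl-CoA ligase, was at 713, 236, 225, 175 and 518 in knockouts and at 991, 279, 298, 248 and 433 in controls. Knockout 1 and control 1 were the highest of their groups, and the log2 fold change of -0.27 ± 0.43 (SE) turned to 0.066 without control 1. Sucla2, the ADP-forming beta subunit, was at 345 ± 88.2 in knockouts and 305 ± 68.6 in controls (SD, n = 5 each). Fh1, fumarase, was at 1111, 766, 554, 461 and 301 in knockouts and at 491, 431, 326, 766 and 360.0 in controls, and its log2 fold change of 0.35 ± 0.34 (SE) was 0.12 without knockout 1. Mdh1, the cytosolic malate dehydrogenase, was at 1103 ± 229 in knockouts and 1003 ± 171 in controls, and Mdh2, the mitochondrial form, at 456 ± 145 in knockouts and 497 ± 66.9 in controls (SD, n = 5 each). For both the difference was within the spread of either group.

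Levels of different genes were compared per kb of merged exons. The highest were Aldoa, at 492 ± 104 normalized counts per kb in knockouts and 526 ± 61.6 in controls, and Mdh1, at 429.7 ± 89.3 in knockouts and 391 ± 66.5 in controls (SD, n = 5 each). Pkm and Gapdh followed, and their ranges overlapped with those of Mdh1 and of each other. Ogdh, Pgam1 and Idh2 came next, at means over all libraries of 242, 237 and 204 per kb, which do not differ beyond their spread. Within the pyruvate dehydrogenase complex the order by mean over all libraries was Pdha1 (126 per kb), Dld (114), Pdhb (48.1), Dlat (42.4) and Pdhx (15.5). In knockouts alone Dlat, at 21.04 ± 7.53 per kb, was nearer to Pdhx, at 18.96 ± 6.69, and in controls, at 63.8 ± 24.6, it was above Pdhb, at 39.9 ± 18.5 (SD, n = 5 each).

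**Figure D3:**
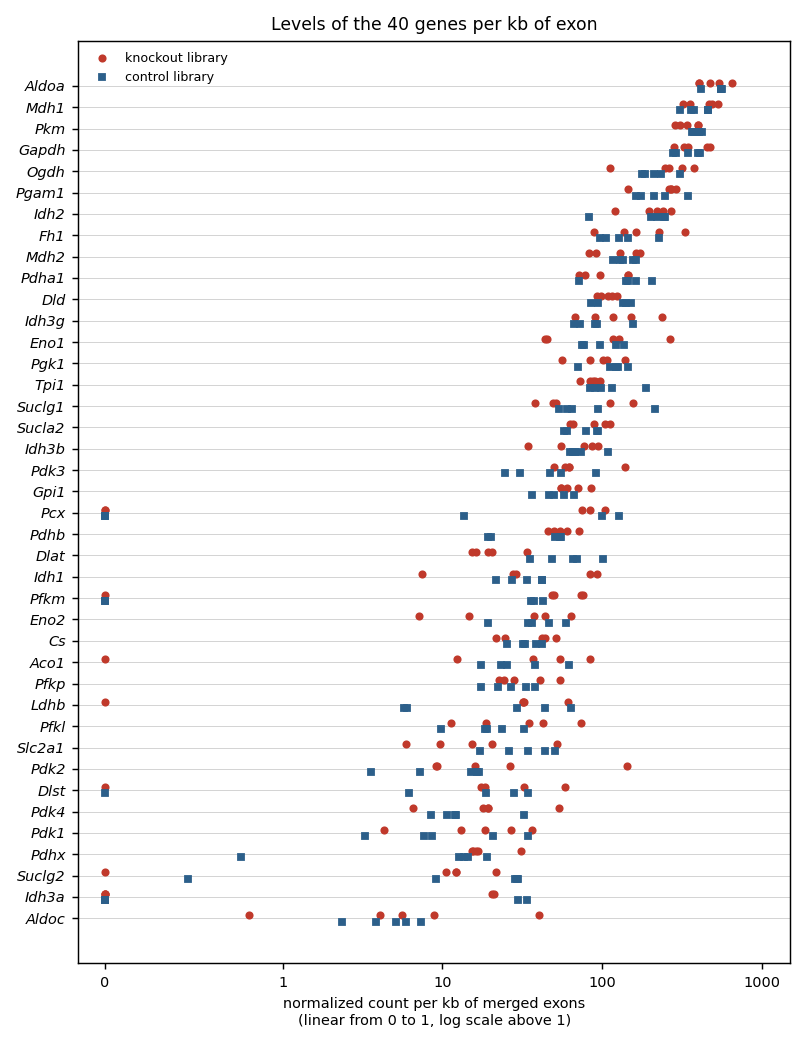
Normalized counts per kb of merged exons for the 40 genes, with 1 point per library (circles, knockout; squares, control) on an axis that is linear up to 1 and logarithmic above it, genes ordered by mean. Aldoa, Mdh1, Pkm and Gapdh lie at the top with narrow ranges, while Pcx, Pfkm, Dlst, Aco1, Ldhb, Suclg2 and Idh3a have libraries at 0.

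The spread between libraries was unequal along the pathway. The SD within groups, on the log2 scale, had a median of 0.58 over the 39 genes and 0.84 over all genes tested, and 26 of the 39 lay below the median of all genes. It was 0.165 for Pkm, 0.24 for Aldoa and 0.28 for each of Mdh1, Gapdh and Dld, and 0.49 for Dlat. At the other end it was 1.185 for Pdk2 and 1.14 for Pdk1, and above 1.3 for each gene with a library at 0. Genes with high counts vary less on this scale, and the comparison was not matched for level.

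The mix of isoenzymes was set out as the share of a gene in its family, from values per kb, and compared between groups by exact 2-sided permutation tests. Of 11 shares 0 had an exact p under 0.05, and the smallest adjusted p was 0.847 by these permutation tests, where 252 arrangements allow no p below 0.00794. Mdh2 made up 22.9% ± 5.09 of the malate dehydrogenase pair in knockouts and 26.5% ± 3.85 in controls (SD, n = 5 each). Aldoc made up 0.151% to 8.99% of Aldoa plus Aldoc in knockouts and 0.564% to 1.302% in controls, with knockout 2 alone above 2% in either group. Eno2 made up 25.1% ± 16.1 of the enolase pair in knockouts and 28.4% ± 11.6 in controls, and Idh2 81.2% ± 16.1 of Idh1 plus Idh2 in knockouts and 84.9% ± 3.88 in controls.

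Pdk3 held the largest mean share of the 4 kinases in both groups, 46.95% ± 14.5 in knockouts and 53.0% ± 15.6 in controls (SD, n = 5 each). Pdk2 held 67.2% in knockout 1, 4.49% to 21.4% in the other knockouts and 3.03% to 29.3% in controls. Pdk4 held 16.6% ± 13.5 in knockouts and 16.4% ± 6.95 in controls, and Pdk1 13.6% ± 8.36 in knockouts and 15.5% ± 11.1 in controls. In the phosphofructokinase and succinyl-CoA ligase families a member was listed at 0 in some libraries, so their shares are shown by library only. Sucla2 held at least 66.9% of the ligase pair in every library.

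**Figure D4:**
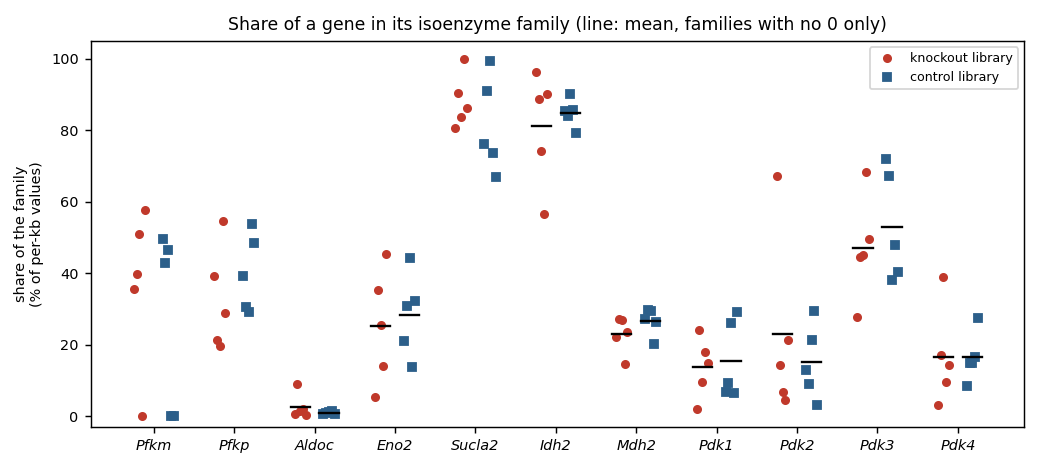
The share of each of 11 genes in its isoenzyme family, in percent of values per kb of exon, with 1 point per library (circles, knockout; squares, control) and a line for the mean where no member of the family is listed at 0. Knockout 1 stands apart for Pdk2, at 67.2%, and the groups overlap for all 11 genes.

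Other genes of the route, in 5 lists outside these, gave 0 calls at an adjusted p of 0.05 by limma. Of 10 tested genes of glucose entry and glycolytic regulation, 8 had negative log2 fold changes, against 52.4% of all genes tested, and 1 an unadjusted p under 0.05, against 5.01%. That gene was Slc2a2, the glucose transporter of mouse β cells. It was at 2120 ± 514 normalized counts in knockouts and 2923 ± 299 in controls (SD, n = 5 each, -0.49 ± 0.17 SE, unadjusted p = 0.0103, adjusted p = 0.942 by limma). Hk1, a hexokinase that mature β cells hold at a low level, ran from 0 to 46.6 in knockouts and from 33.2 to 99.6 in controls.

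Of 7 tested genes of pyruvate entry and dehydrogenase control, 5 were negative, against 52.4% of all genes tested, and 0 had an unadjusted p under 0.05 by limma. Mpc2, part of the carrier that takes pyruvate into mitochondria, was at 142 ± 95.8 in knockouts and 239 ± 115 in controls (SD, n = 5 each, -1.01 ± 0.61 SE). Pdp1, a phosphatase that activates the complex, ran from 0 to 113 in knockouts and from 74.2 to 227 in controls, and Pck2, mitochondrial phosphoenolpyruvate carboxykinase, was at 0.47 ± 0.46 (SE).

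Of 12 tested genes in the rest of the TCA cycle, 9 were positive and 3 negative, against 52.4% negative among all genes tested. By limma 1 had an unadjusted p under 0.05, with higher values in knockouts, against 2.36% of all genes tested. Sdhc, a subunit of succinate dehydrogenase, was at -0.74 ± 0.53 (SE). Sdhaf1, an assembly factor of that enzyme, ran from 7.06 to 163 in knockouts and from 0 to 79.96 in controls.

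Of 17 tested genes of shuttles, anaplerosis and export, 1 had an unadjusted p under 0.05 in each direction, against 2.36% of all genes tested with higher and 2.66% with lower values in knockouts. Acly, which splits exported citrate, was at 5447 ± 659 in knockouts and 6553 ± 792 in controls (SD, n = 5 each, -0.27 ± 0.12 SE), and Me3, a malic enzyme, ran from 60.7 to 198 in knockouts and from 0 to 153 in controls. The 12 tested genes of the hypoxia list, hypoxia-inducible factors and their targets, were 6 positive and 6 negative, with a median of -0.01. Egln1, an oxygen sensor, was at -0.74 ± 0.43 (SE), Vegfa, a growth factor for vessels, at -0.25 ± 0.17 and P4ha1, a collagen prolyl hydroxylase, at -0.35 ± 0.30.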

How the data were processed

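The table deposited by the authors holds normalized counts, handled here as signal, with their own log2 fold changes, standard errors and test scores, and p-values, per the file headers. STAR 2.4.0.1, HTSeq and DESeq2 appear, with no role, per the submitters' processing notes. Library RNA was depleted of ribosomal RNA and read with a stranded kit, per the labels' protocols. Whether counting used strand, the genome build and the annotation are not given in the sources used here. Reads shared with pseudogenes or copies (Aldoa, Gapdh, Pgk1, Pgam1 and Eno1 have named ones) and exons overlapping other genes (Pkm with Gm49759 and Pfkm with Gm26513 on the same strand, Pdha1 with Map3k15, Pfkp with Pitrm1 and Gpi1 with Gm26762 on the opposite one, and 6 others by at most 105 bases) make those levels uncertain.

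Whole multiples of a library's commonest low value, within 0.01, made up 22.6% to 33.6% of values, so whole reads were not recovered, depth is unknown and no count model was run. Normalized totals ran from 5534386 to 7358040. The 1 row without a name (at most 0.0251% of a library) was left out.

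Genes with at least 10 in at least 5 libraries were fitted as log2(value + 8) with limma 3.58.1 in R 4.3.3 (trend, robust, Benjamini-Hochberg over 11711 genes). Fold changes on that scale understate low genes. The limma fit was tested on simulated data. The labels do not say that libraries are separate animals, so p-values measure the spread between libraries. The genes, lists, and the rule naming all 40 genes, Grk5 and the 3 smallest p per further list were chosen with earlier results of these data known. Some genes that this rule names are not reported here. Exon lengths and positions are from GENCODE M21 (GRCm38), which may differ from the authors' build. Shares, tests and figures used Python 3.11.15, scipy 1.17.1, pandas 2.3.3 and matplotlib 3.10.9.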

Additional observations from a re-analysis of the deposited data

Results flagged for a closer look

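In 102 groups of 5 values examined, for the 39 genes, Grk5 and the 11 shares, 14 had a highest or lowest library far from the rest of its group, by a gap over 0.71 of the whole range. For independent, normally distributed values chance flags about 1 in 20 groups. Some groups here hold listed zeros, and shares in a family depend on each other, so that rate may not apply. An excess over chance was not tested.

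In knockout 1, Pdhx was high at 121 normalized counts, Ldhb and Dlst were listed at 0, and the Pdk2 share of its family was high at 67.2%. In knockout 4, Pfkm and Suclg2 were listed at 0 and Pdk3 was high at 357. Pgam1 was low in knockout 3, at 286, and the Aldoc share of its family was high in knockout 2, at 8.99%.

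In controls, Aldoa was low at 1211 and Pdhx at 3.01 in control 1. In control 5, Pdk4 was high at 114 and Idh2 low at 214. Idh3b was high in control 3, at 369.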

How the results depend on the processing

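Dlat kept a negative log2 fold change in all 22 alternatives, from -1.71 to -1.32, with unadjusted p from 0.000351 to 0.0115 and adjusted p from 0.568 to 0.9999 by limma, and Grk5 kept its sign too, from -0.94 to -0.36. Calls among the 40 genes and the further lists stayed at 0 in every alternative run. Calls among the 11 shares stayed at 0 too, but with all libraries their permutation tests allow no p below 0.00794. At that p 1 share alone could not pass after adjustment, and leaving libraries out raises the limit. The 0 calls among the shares therefore say little about their stability. Over all genes 0 passed, but 1 passed without a trend and robust estimate, 1 without controls 2 and 5, 4 without controls 2, 3 and 5 (an alternative chosen after seeing the data) and 0 to 1 with single libraries left out. The gene passing without controls 2 and 5 was Esr1, whose values picked out those libraries, so that call was fixed by the choice, and Esr1 also had the smallest p without controls 2, 3 and 5. No paired analysis was possible because no number in the labels is shared between the groups.

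Signs turned for 17 genes, none of them called, and the cause was not tested. Of these, 12 had no library at 0, and the values of the other 5 (Pcx, Dlst, Ldhb, Aco1 and Suclg2) carry no direction. Without controls 2, 3 and 5 the values were -0.14 for Pfkp, 0.0042 for Aldoa, -0.092 for Cs, -0.080 for Idh1, -0.14 for Idh2, -0.74 for Dlst, -0.021 for Sucla2 and -0.079 for Fh1. Without controls 2 and 5 they were -0.19 for Idh2 and -0.93 for Dlst, and the Pdk1 share differed by 0.586 percentage points. With array weights Pgam1 was at -0.0073 and Aco1 at 0.015, with the acinar covariate Eno1 at 0.074 and Pcx at -0.24, with a pseudocount of 1 Ldhb at -0.28, and with upper-quartile scaling Cs at -0.0091. As log2 ratios the Idh2 and Pdk4 shares differed by 0.017 and -0.312.

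With single libraries left out, ranges that cross 0 were -0.11 to 0.81 for Aldoc, -0.41 to 0.23 for Eno1, -0.26 to 0.68 for Ldhb, -0.42 to 1.21 for Pcx, -0.089 to 0.21 for Cs, -1.06 to 0.33 for Aco1, -0.21 to 0.60 for Idh1, -0.17 to 0.30 for Idh2, -0.29 to 0.056 for Idh3b, -0.44 to 1.49 for Dlst, -0.55 to 0.066 for Suclg1 and -1.26 to 0.053 for Suclg2. For shares, in percentage points, they were -8.42 to 1.63 for Eno2, -7.49 to 2.49 for Idh2, -4.50 to 1.51 for Pdk1, -3.34 to 12.3 for Pdk2 and -5.38 to 3.55 for Pdk4. No scaling moved the median of all genes by over 0.1. Depth could not be recovered, so counting error behind low values such as Aldoc and Ldhb is unknown.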

Other observations

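Extreme values of the 40 genes were spread unevenly over the libraries. Knockout 1 had the fewest genes above 0 and the largest normalized total, 7358040. It held the highest value of 10 genes and listed 4 at 0. Whether its total bears on these values was not tested. Knockout 4 held the lowest value above 0 of 9 genes and listed 3 at 0, and knockout 3, with the most genes above 0, listed none at 0. Control 2 held the highest value of 0 genes and control 5 that of 5.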
